A study of Homo sapiens with 2 samples.

Results

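The Fanconi anaemia, recombination, excision, mismatch and translesion repair genes that act on cisplatin damage were compared between SAS cells and eSAS cells. They were taken from the gene names on the array by a fixed pattern: names beginning with FANC and a letter from A to N, XRCC, ERCC or RAD5 with a digit, the MSH and MLH mismatch genes, and a list of further names such as BRCA1, XPA, POLH, ATR and CHEK1. REV1L, on that list, was not found under that name; the gene is on the array as REV1, which the pattern did not take. The pattern took 54 of the 30484 gene names on the array, with 77 of 41000 probes in 140 of 43376 probe spots. The pattern used no measured value. It also took XRCC6BP1 and RAD54L2, whose products are not established members of these pathways, and they are described apart.

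SAS is an established human tongue squamous carcinoma line. eSAS is the population left after 5 rounds in which large spheroids of SAS cells were kept on a removable mesh, and it is thus a selected population of the same line, with no engineered allele. RNA came from cells in log growth, 1 array for each population, and no drug treatment of these samples is given; the methods describe a single-cell step to establish a line, but do not say whether the hybridised eSAS RNA came from such a clone. With 1 array per population no test between them was possible, no p-value is given, and the number of arrays limits every value.

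The arrays were 1-colour, and the values are processed signals of the scanner software, in arbitrary units. Spots well above background made up 69.4% of the SAS array and 67.5% of the eSAS array, and none was saturated. The log2 of each signal was taken relative to the 75th percentile of its array, 1242 for SAS and 1196 for eSAS, and the log2 ratio is eSAS over SAS. Signals are printed unscaled and ratios scaled. Spots of the same probe differed in log2 ratio with a pooled SD of 0.078 over 211 probes, which is technical spread and leaves out any variation between cultures. The epithelial markers listed were general ones, such as KRT8 and KRT18, as well as squamous ones, such as KRT5. All 11 on the array were well above background on both arrays, among them KRT19, TACSTD1 (now EPCAM) and TP73L (now TP63). Their median log2 ratio was -0.29, with KRT5 and SFN, at -0.63 and -0.59, past 1.5-fold on the lower side. Of the 11, 7 lay below 0, while KRT18, JUP, KRT8 and TACSTD1 lay above it, at 0.16, 0.13, 0.12 and 0.040. The leukocyte markers PTPRC and CD3D were not well above background on either array, while CD68 and CD14 were on both. Of 7 fibroblast and endothelial markers, only VWF was well above background on both arrays, at 1 of its probes, with signals of 86.6 and 76.0. COL1A1 and CDH5 were so in SAS cells alone, near the limit of detection. The part of these markers in the repair gene values was not tested.

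Cisplatin binds purines in DNA and joins them within a strand or across both strands. Crosslinks within a strand are removed by nucleotide excision repair, in which XPC and the DDB proteins find damage, XPA and the TFIIH helicases open the DNA, and the ERCC1 partner nuclease and ERCC5 cut on either side. Crosslinks across strands stall the replication fork, where the Fanconi anaemia core complex marks the FANCD2 and FANCI pair with ubiquitin. Translesion polymerases then copy past the unhooked lesion, homologous recombination mends the broken duplex, and ATR, ATM and the CHEK kinases signal the damage. Mismatch repair proteins recognise cisplatin lesions too, and their loss is known from tolerant cell lines.

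The repair genes differed little between the populations. Of the 54 genes, 52 had at least 1 probe well above background on both arrays, and the median of their log2 ratios was -0.021, with an SD of 0.20. The median over all 19467 genes measured in the same way was -0.0012, with an SD of 0.37. The middle 50% of the repair genes lay between -0.11 and 0.063, and that of all genes between -0.14 and 0.13. Of the 52, 30 lay below 0 and 22 above, and 36 were within 0.155, that is 2 SD of replicate spots; 54.7% of all genes were. In bulk RNA, fewer cells that express a gene and less of its RNA per cell cannot be told apart.

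**Figure D1:**
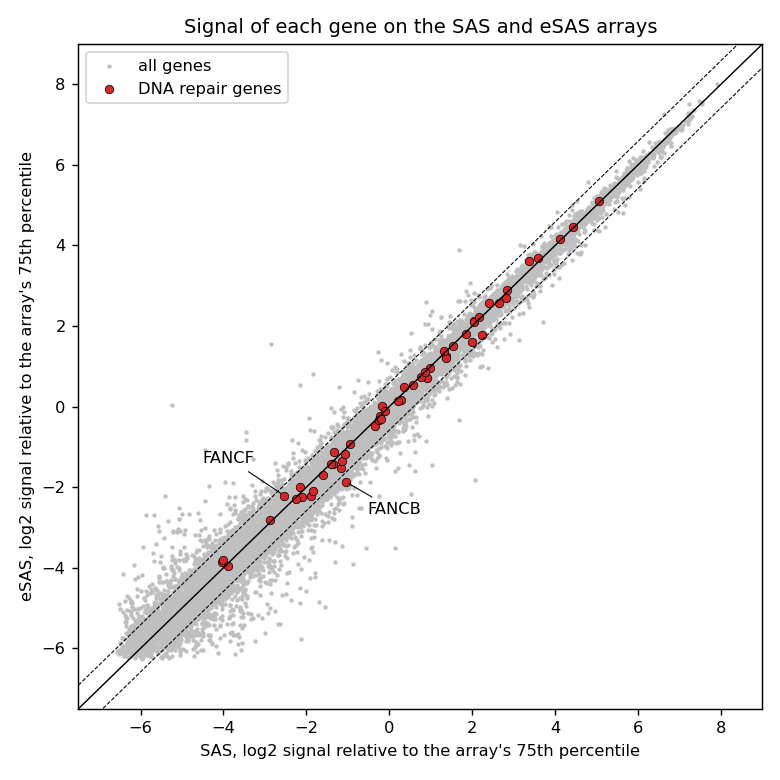
Log2 signal of each gene on the SAS array (x axis) and on the eSAS array (y axis), relative to the 75th percentile of each array. Grey points are all 19467 genes, red points the 52 measured repair genes, the solid line is equality and the dashed lines are 1.5-fold apart. FANCB is the 1 repair gene beyond a dashed line, and FANCF has the highest ratio.

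Taking 1.5-fold as the difference counted, FANCB was lower in eSAS cells and no repair gene was higher. Of all genes, 4.99% were at least 1.5-fold lower and 3.19% at least 1.5-fold higher, so 1 of 52 lower and 0 of 52 higher are no more than the background shares. No repair gene differed 2-fold, against 1.37% of all genes lower and 1.01% higher. FANCB encodes a core complex subunit that holds the ubiquitin ligase module together. Its single probe, for transcript NM_152633, lies on chromosome X of hg18 from 14771958 to 14772017. The FANCB spot gave 600 in SAS and 327 in eSAS cells, a log2 ratio of -0.82 or 1.76-fold. The mean pixel of this spot was 707 and 406, and the median pixel 684 and 394, so both pixel summaries gave the lower value for eSAS. With the normexp background correction fitted on all spots, which moved the median of all genes to 0.68, FANCB turned to 0.16, still below that median. The other end of the order was FANCF, also a core complex subunit, with a log2 ratio of 0.33.

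The sequences before the start sites of the 3 lowest genes, FANCB, DDB2 and ERCC5, and of the highest, FANCF, are shown because these genes mark the ends of the order. They are the 250 bases before the gene start, 5′ to 3′ on the gene's strand, from RefSeq on GRCh38.p14, a build other than that of the probes. Capitals mark a CCAAT box (CCAAT) or GC box (GGGCGG) on either strand; none of the E2F sites TTTGGCGC, TTTCCCGC and TTTCGCGC was in these 4 stretches. Their positions are chrX:14873070-14873319 (minus strand) for FANCB, chr11:47214204-47214453 (plus) for DDB2, chr13:102845782-102846031 (plus) for ERCC5 and chr11:22625824-22626073 (minus) for FANCF.
FANCB: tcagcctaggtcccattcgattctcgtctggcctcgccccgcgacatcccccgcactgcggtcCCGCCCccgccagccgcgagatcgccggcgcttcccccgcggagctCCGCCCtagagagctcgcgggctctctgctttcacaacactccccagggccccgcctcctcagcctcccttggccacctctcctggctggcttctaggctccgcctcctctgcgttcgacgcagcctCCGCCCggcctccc
DDB2: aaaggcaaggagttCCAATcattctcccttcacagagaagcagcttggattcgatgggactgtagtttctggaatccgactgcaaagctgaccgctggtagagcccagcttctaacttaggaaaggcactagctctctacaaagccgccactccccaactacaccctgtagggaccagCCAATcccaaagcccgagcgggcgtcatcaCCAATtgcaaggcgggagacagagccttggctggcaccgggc
ERCC5: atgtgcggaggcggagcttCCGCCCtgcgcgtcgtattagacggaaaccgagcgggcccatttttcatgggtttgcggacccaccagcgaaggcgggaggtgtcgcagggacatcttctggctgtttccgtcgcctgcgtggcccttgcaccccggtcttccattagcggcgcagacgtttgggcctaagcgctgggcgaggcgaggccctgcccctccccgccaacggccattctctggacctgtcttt
FANCF: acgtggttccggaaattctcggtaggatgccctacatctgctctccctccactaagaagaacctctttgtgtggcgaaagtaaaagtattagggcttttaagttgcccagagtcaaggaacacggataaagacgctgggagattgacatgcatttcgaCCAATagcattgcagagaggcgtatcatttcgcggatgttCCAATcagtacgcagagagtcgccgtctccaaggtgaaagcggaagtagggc

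FANCB held 3 GC boxes in this stretch and no CCAAT box, DDB2 3 CCAAT boxes and no GC box, ERCC5 1 GC box and FANCF 2 CCAAT boxes. RefSeq windows reaching 50 bases past the start were found for 48 of the 54 genes, 3 of them through an older symbol. FANCI, RAD54B and XRCC5 were among those not matched. At least 1 of the 3 E2F sites, letters bound by the factors that switch on S phase genes, was in 7 of the 48 windows (14.6%), against 2.79% of 27305 windows of all genes. Those 27305 windows were not limited to genes measured on the arrays, nor matched to the repair genes in GC content. A GC box was in 70.8% of the repair gene windows and 44.6% of all, and a CCAAT box in 37.5% and 35.7%. The 7 genes with an E2F site, namely XRCC2, MSH3, XPC, FANCD2, MSH6, XRCC6 and FANCC, had log2 ratios from -0.25 to 0.072 with a median of 0.0010. The 39 measured genes without one had a median of -0.033. A match of letters is a description of the sequence and not a bound site.

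Of the 10 measured nucleotide excision repair genes, 9 had a log2 ratio below 0, as had 50.2% of all genes, and the median was -0.12, with DDB1 the 1 gene above 0. Only DDB2, ERCC5, ERCC6 and ERCC1 lay below 0 by more than 2 SD of replicate spots, and the other 6 were within it. This split depends on the scaling. With median centring ERCC1, at -0.13, was within 0.155, and with no scaling XPA and XPC, at -0.18 and -0.16, passed it. The 17 other excision repair genes listed did not share the side, with 6 below 0 and a median of 0.066. DDB2, the damage-binding partner of DDB1 that recognises DNA damage in chromatin, gave 5838 in SAS and 4102 in eSAS cells. This is a log2 ratio of -0.45, the second lowest of the 52 genes. DDB1, the adaptor subunit that DDB2 binds, had signals of 21509 and 21426 and a log2 ratio of 0.049. ERCC5, the nuclease that cuts on the 3′ side of the lesion, had signals of 4949 and 3651 and a log2 ratio of -0.38. The remaining genes were closer to 0.

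ERCC1 is the partner of the ERCC4 nuclease, and its amount is often studied in cisplatin-treated tumours. It gave 3231 in SAS and 2780 in eSAS cells, a log2 ratio of -0.16. The ERCC4 probe gave 33.5 in SAS and 16.8 in eSAS cells, where it was not well above background. On the processed signal ERCC4 was 1.91-fold lower in eSAS cells. This fold uses the spot's own signals, of which the eSAS one was too dim to count as measured. The pixels of the same spot, not scaled between the arrays, gave less. They gave 1.21-fold for the mean and 1.23-fold for the median before background was removed, and 1.36-fold for the mean less the local background. Scaling, by 75th percentiles of 1242 in SAS and 1196 in eSAS cells, is part of the 1.91-fold alone. The size of the ERCC4 fold depends on the background subtraction. It rests on 1 spot near the limit of detection, since the lowest signals well above background were 12.8 in SAS and 15.2 in eSAS cells, and ERCC4 is not among the 52 genes counted. XPA, which checks that the strand carries damage, had signals of 972 and 856 and a log2 ratio of -0.13. XPC, the sensor of distorted DNA, had 1053 and 942 and a log2 ratio of -0.11. ERCC6, ERCC8, ERCC2 and ERCC3 had log2 ratios of -0.20, -0.10, -0.054 and -0.033. The 2 ERCC8 probes were at 0.0062 and -0.21. ERCC6 and ERCC8 act where a lesion has stopped RNA polymerase, and ERCC2 and ERCC3 are the helicases of TFIIH.

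**Figure D2:**
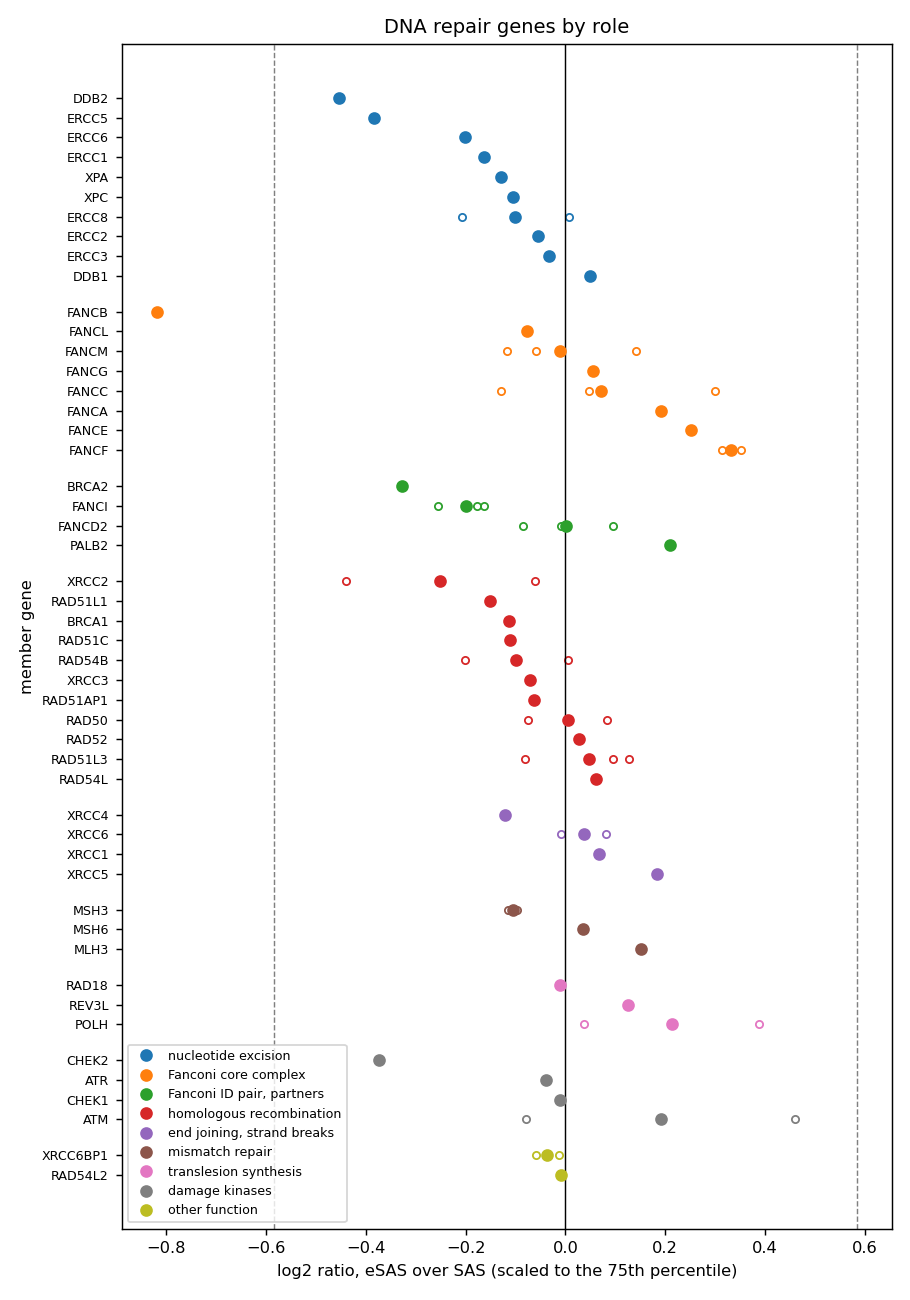
Log2 ratio of eSAS over SAS (x axis) for 49 of the 52 measured repair genes (y axis), grouped by role. Filled points are gene values, open points are the single probes of genes with more than 1 measured probe, and dashed lines mark 1.5-fold. FANCB lies beyond the left line, and 9 of the 10 nucleotide excision repair genes lie left of 0.

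The Fanconi core complex held both ends of the order. Beside FANCB and FANCF, the median of its 8 genes was 0.064, with 5 above 0. The 2 probes of FANCF, the adaptor that ties the subcomplexes to FANCM, gave 755 in SAS and 903 in eSAS cells, and 60.5 and 74.4. Their log2 ratios of 0.31 and 0.35 were alike. FANCE, which docks FANCD2 onto the complex, had signals of 12790 and 14656 and a log2 ratio of 0.25. FANCA, a large scaffold subunit that pairs with FANCG, was measured at 10 spots of 1 probe. Over its 9 usable spots the signal ran from 1035 to 1147 with a median of 1097 on the SAS array, and from 1151 to 1266 with a median of 1193 on the eSAS array. The log2 ratio was 0.19 ± 0.040 (SD, n = 9 spots), above 0 at every usable spot. FANCG and FANCC had log2 ratios of 0.056 and 0.072. FANCL, the ligase itself, had -0.078, and FANCM, the translocase that anchors the complex at the fork, -0.011. The 3 FANCC probes were apart, at 0.046, -0.13 and 0.30, so the FANCC mean stands for none of them. The 3 FANCM probes ran from -0.12 to 0.14.

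The genes of the pair that the core complex marks, and of their partners, lay on both sides of 0. FANCD2 had 3 probes with signals of 1052, 120 and 9419 on the SAS array and 1083, 115 and 8556 on the eSAS array, and their log2 ratios of 0.096, -0.0086 and -0.084 averaged 0.0010. FANCI, its partner, had 3 probes with signals of 3002, 899 and 4639 on the SAS array and 2580, 726 and 3951 on the eSAS array. The 3 FANCI ratios, -0.16, -0.26 and -0.18, were all below 0 and averaged -0.20. BRCA2, a mediator of homologous recombination, gave a signal of 321 to 365 with a median of 336 over its 10 SAS spots and 237 to 280 with a median of 257 over its 10 eSAS spots. The BRCA2 log2 ratio was -0.33 ± 0.033 (SD, n = 10 spots). PALB2, which bridges BRCA1 and BRCA2, had signals of 490 and 545 and a log2 ratio of 0.21.

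The homologous recombination genes had a narrower range than either Fanconi set. The 12 genes had a median of -0.067, with XRCC2 the lowest at -0.25, and 7 lay below 0. BRCA1, which promotes the resection of broken ends, gave 2928 to 3474 with a median of 3202 over 10 SAS spots and 2610 to 3099 with a median of 2867 over 10 eSAS spots. These ranges overlapped, but each of the 10 spots was lower on the eSAS array and the log2 ratio was -0.11 ± 0.032 (SD, n = 10 spots). The recombinase paralogues, which help the filament for strand exchange form, were XRCC2 at -0.25, RAD51L1 (now RAD51B) at -0.15, RAD51C at -0.11, XRCC3 at -0.070 and RAD51L3 (now RAD51D) at 0.047. The 2 XRCC2 probes were apart, at -0.44 and -0.062, so its mean stands for neither. The 3 RAD51L3 probes ran from -0.081 to 0.13. RAD54B, a motor protein of strand exchange, had -0.20 ± 0.046 (SD, n = 10 spots) at 1 probe and 0.0044 at the other. RAD50, of the complex that first binds broken ends, had 0.084 ± 0.019 (SD, n = 9 spots) at 1 probe and -0.075 at the other, and RAD52, RAD54L and RAD51AP1 had 0.027, 0.062 and -0.064.

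End joining and single-strand break genes ran from -0.12 for XRCC4 to 0.18 for XRCC5, with a median of 0.051. XRCC5 and XRCC6 form the Ku ring that binds broken ends, and their log2 ratios were 0.18 and 0.036. XRCC4, the cofactor of the final ligase, had -0.12, and XRCC1, the scaffold of single-strand break repair, had 0.067. Mismatch repair genes were alike in this respect, with a median of 0.035 over 5 genes. MSH6, of the complex that finds single mismatches, had 0.035 and MSH3, of the complex that finds longer loops, -0.11. MLH3, of the step that follows, had signals of 278 and 297 and a log2 ratio of 0.15. MSH4, known as a meiotic gene, was not well above background on either array, with signals of 3.47 and 4.03.

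The translesion synthesis genes had a median of 0.12 over 3 genes. REV3L, the catalytic subunit of polymerase zeta that extends past cisplatin lesions, had signals of 1595 and 1674 and a log2 ratio of 0.12. POLH, the polymerase that inserts bases opposite the lesion, had 2 probes. The first gave 370 in SAS and 366 in eSAS cells, and the second 16.1 and 20.2, close to the lowest signals well above background. Their log2 ratios were 0.038 and 0.39, so the gene value of 0.21 rested on the dim probe, and with the brightest probe of each gene the median of this role was 0.038. RAD18, the ligase that calls these polymerases to the fork, had -0.010. REV1, the scaffold polymerase of this step that the name pattern missed and that is not in this median, had 2 probes at -0.089 and -0.16, which averaged -0.12.

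Among the damage kinases, CHEK2 had the lowest log2 ratio. CHEK2, which carries the ATM signal to the cell cycle, had signals of 556 and 413 on its single spot and a log2 ratio of -0.37. ATR, the kinase of stalled forks, had 3628 and 3400 and a log2 ratio of -0.039. CHEK1, which ATR activates, had 2441 and 2332 and a log2 ratio of -0.012. ATM, the kinase of double-strand breaks, had 1 probe not well above background on either array and 2 others that were apart. The first gave 52.3 to 61.8 with a median of 57.6 over 8 SAS spots and 64.8 to 96.7 with a median of 73.4 over 8 eSAS spots. Its log2 ratio was 0.46 ± 0.14 (SD, n = 8 spots). The second gave 99.4 and 90.7 and a log2 ratio of -0.078, and the ATM gene value was 0.19. Of the genes that the name pattern took without a repair role, XRCC6BP1 had -0.036 and RAD54L2 -0.0081.

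**Figure D3:**
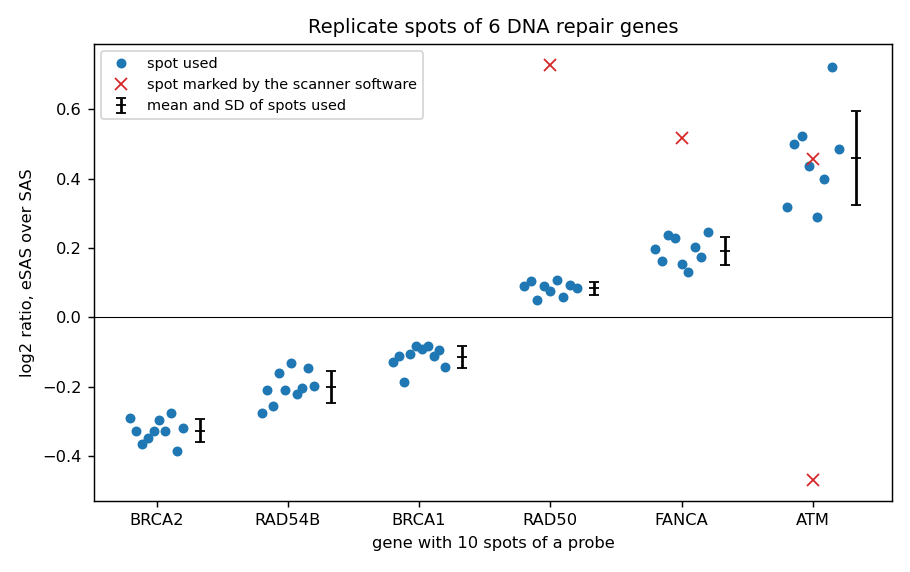
Log2 ratio of eSAS over SAS (y axis) at each of the 10 spots of a probe for 6 repair genes (x axis). Blue points are spots used, red crosses are spots that the scanner software marked as non-uniform or outlying, and bars show the mean and SD of the spots used. The BRCA2, RAD54B and BRCA1 spots all lie below 0, and the RAD50, FANCA and ATM spots used all lie above it.

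The agreement between probes sets how far a single probe can be read. Of the 52 genes, 16 had more than 1 measured probe, and the range between the probes of a gene had a median of 0.19 in log2 ratio and reached 0.54 for ATM. In 9 of the 16 genes the probes lay on both sides of 0. No gene had probes more than 1 apart. Of the 140 repair gene spots, 5 were marked and left out, among them 2 of ATM and 1 each of FANCA and RAD50. The marked RAD50 spot gave 1437 in SAS and 2293 in eSAS cells, a log2 ratio of 0.73, against at most 0.11 at the other RAD50 spots. It lies in a band of rows, 454 to 513, in which 187 of the 194 spots marked non-uniform in SAS cells lie, with 24 of the repair gene spots. The FANCB, DDB2, ERCC5 and CHEK2 spots lie outside that band.

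Of the 5 lowest repair genes, FANCB is on chromosome X and ERCC5 and BRCA2 are on chromosome 13, no other measured repair gene is on either, and this was looked into after their values were seen. Genes of these chromosomes as a whole were lower on the eSAS array. The 632 genes on X, named by the probe positions in hg18, had a median log2 ratio of -0.48, and 82.9% of them lay below 0. The 343 genes on chromosome 13 had a median of -0.31, with 83.4% below 0. The medians of the other autosomes ran from -0.052 for chromosome 20 to 0.029 for chromosome 7, and their 18241 genes had a median of 0.0072. With normexp on all spots the 3 medians turned to 0.42, 0.42 and 0.69, so that X and chromosome 13 stayed below the other autosomes.

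**Figure D4:**
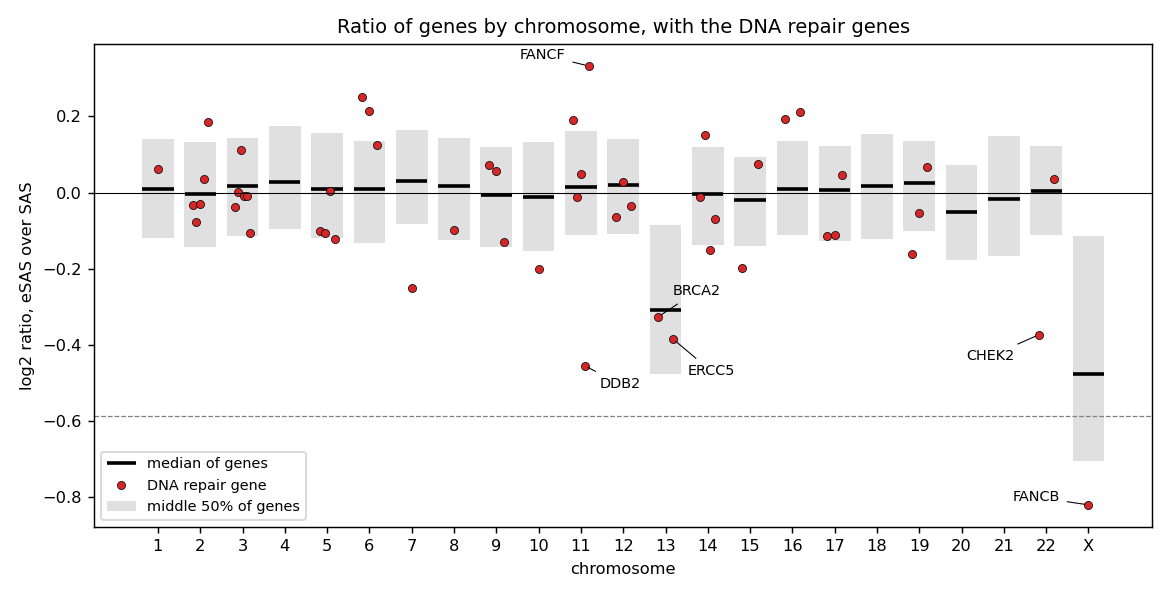
Log2 ratio of eSAS over SAS (y axis) by chromosome (x axis). Black lines are the medians and grey boxes the middle 50% of all measured genes of a chromosome, red points are repair genes, and the dashed line marks 1.5-fold lower. The medians of chromosomes X and 13 are -0.48 and -0.31, FANCB lies below the X median, and BRCA2 and ERCC5 lie near that of chromosome 13.

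On X, 39.4% of genes were at least 1.5-fold lower and 1.74% at least 1.5-fold higher. On chromosome 13 these shares were 13.1% and 2.33%, and on the other autosomes 3.65% and 3.26%. FANCB, the 1 repair gene past 1.5-fold, was thus on the chromosome where lower values past 1.5-fold were most frequent of these 3 sets. Its log2 ratio less the X median was -0.34, and with each gene set against the median of its chromosome no repair gene was 1.5-fold apart in either direction, against 3.76% of all genes lower and 3.43% higher after the same step. Of the 45 other measured genes within 5 Mb of FANCB, 36 lay below 0 and 3 were lower than FANCB, with a median of -0.39; within 2 Mb the median was -0.14 over 22 genes and within 10 Mb -0.38 over 72. Around BRCA2 the median within 5 Mb was -0.27 over 45 genes, and around ERCC5 it was -0.27 over 38. DDB2 and CHEK2 did not share this: the 56 genes around DDB2 had a median of 0.032 and the 108 around CHEK2 a median of -0.012.

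The lower values of X and chromosome 13 were spread over both the chromosomes and the array. All 13 stretches of 10 Mb on X with at least 20 genes had a median below 0, from -0.68 to -0.062, as had all 8 on chromosome 13, from -0.39 to -0.26. With the array rows cut into first, middle and last parts of like spot number, the X spots had medians of -0.49, -0.51 and -0.53 and the chromosome 13 spots -0.34, -0.31 and -0.32. Among genes whose mean signal was above the 75th percentile, 216 on X had a median of -0.49 and 106 on chromosome 13 a median of -0.30. Across the 52 repair genes, the log2 ratio and the median of the genes within 5 Mb had a Pearson r of 0.62 and a Spearman rho of 0.28, and with windows of 2 and 10 Mb the Pearson r was 0.38 and 0.59. Without the 3 genes on X and 13 the Pearson r was 0.12 over 49 genes, so it rests on those 3; genes of 2 arrays are not independent replicates. The 49 repair genes on the other autosomes ran from -0.45 to 0.33 with a median of -0.011, 27 below 0 and 22 above. The array measures RNA, and what lies behind the values of the 2 chromosomes was not tested.

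Further genes of these pathways were listed by their known roles, with earlier results of these data known. Of 100 such genes on the array, 97 were measured, with a median log2 ratio of 0.034. At least 1.5-fold lower were BRCC3, UBE2A and CETN2, and none of the 97 was 1.5-fold higher, against the 4.99% and 3.19% of all genes given above. These 3 genes are on X. BRCC3, a ubiquitin-cutting partner of BRCA1, had 2 probes with signals of 7322 and 646 in SAS and 4328 and 353 in eSAS cells, and a log2 ratio of -0.76. UBE2A, the conjugating enzyme that works with RAD18, had signals of 13768 and 8019 and a log2 ratio of -0.73. CETN2, a subunit of the XPC complex, had signals of 5650 and 3398 and a log2 ratio of -0.68. APEX2, a nuclease of base excision repair and the remaining X gene on these lists, had signals of 6003 and 3930 and a log2 ratio of -0.56.

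The 2 listed genes on chromosome 13 were LIG4, the ligase of end joining, and CUL4A, the scaffold of the DDB1 ubiquitin ligase. LIG4 had a log2 ratio of -0.40 at the 1 probe of 3 that was well above background in both, with signals of 74.4 and 54.2. CUL4A had 2 probes at -0.28 and -0.42, which averaged -0.35. The other 91 had a median of 0.045 and none was 1.5-fold apart in either direction. Of all genes on the other autosomes, 3.65% were at least 1.5-fold lower and 3.26% higher. The highest was UBE2B, the close relative of UBE2A, with a log2 ratio of 0.45 and 3 probes at 0.29, 0.76 and 0.31. By list, the medians were 0.048 for 11 other Fanconi and crosslink genes, -0.016 for 22 recombination genes and 0.055 for 11 end joining and strand break genes. They were 0.11 for the mismatch genes PMS1 and PMS2, 0.025 for 9 translesion genes, -0.051 for 9 signalling genes and 0.041 for 16 base excision genes.

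Many repair genes are made in S phase, so genes of the cell cycle were set beside them. Of 29 proliferation genes measured, none was 1.5-fold apart in either direction, against 4.99% of all genes lower and 3.19% higher. Their median log2 ratio was -0.037. Their ratios ran from -0.35 for CCNB2, a mitotic cyclin, to 0.29 for TYMS, which makes thymidylate; the 2 CCNB2 probes were apart, at -0.15 and -0.55. MKI67, a marker of cycling cells, had signals of 1300 and 1304 and PCNA, the sliding clamp of replication, 18560 and 17111. The paper reports slower growth of eSAS cells in standard culture, and its relation to these values was not tested.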

How the data were processed

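RNA of SAS and eSAS cells was hybridised to 1-colour Agilent whole human genome arrays, 1 per population, both on the same slide according to the file headers. The authors deposited the output of Agilent Feature Extraction 10.7.3.1, with intensity on a linear scale. In its processed signal the software had removed background and spatial trends and raised dim spots to a small positive value, without scaling the arrays to each other. The authors' table of values for the series was equal to the processed signal at every spot that is not a control.

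Signals were turned to log2 and the 75th percentile over the spots that are not controls was subtracted, array by array. Spots that the software marked on either array, as non-uniform or outlying among their copies, were left out, and log2 values of spots were averaged per probe. A probe was well above background where more than 50% of its spots were, and a gene value is the mean log2 ratio of its probes well above background on both arrays. Where 1 array was dim, the fold used the higher of the probe's own signal and the lowest signal well above background. Genes carry the names on the array, with current symbols added for a few; positions of probes are those of the files, in hg18.

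Genes were named by rule: those at least 1.5-fold apart, the 5 highest and 5 lowest, a fixed list of genes often studied in the cisplatin response, genes whose probes differ by over 1 (none did) and genes with a dim probe; other repair genes are given by value as well, a few genes enter counts and medians but are not reported here, and genes of the other lists were named after their values were seen. The repair genes and lists were chosen with earlier results of these data known, and the comparison by chromosome was made after the values were seen. The difference counted was 1.5-fold, with 2-fold beside it. Genes whose probes lie on more than 1 chromosome, and those on Y and the mitochondrial genome, were left out of the medians by chromosome. With 1 array per population there are no residual degrees of freedom, so no test was made. Alternatives were other scalings, normexp with an offset of 50 on all spots or without marked backgrounds, no background correction with mean or median pixels, the series table, a looser or no filter for dim probes, use of marked spots, the marked rows left out, the brightest probe and probes in place of genes. A value was called unmoved when it shifted by less than the pooled SD of replicate spots, and a count when it stayed within 1.5 times. Python 3.11.15 with numpy 2.4.6 and pandas 2.3.3, and R 4.3.3 with limma 3.58.1 ran these steps, and simulated data with known folds were used to check the counts.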

Additional observations from a re-analysis of the deposited data

How the results depend on the processing

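No paired analysis was possible because there was 1 array per population. With quantile normalization, median centring, no scaling, the 75th percentile over bright probes, the series table, marked spots kept, the marked rows left out and probes in place of genes, the counts, the medians by role and the medians by chromosome moved by less than the limits given above.

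Under normexp fitted on all spots, the median of all genes moved from -0.0012 to 0.68, so its values are to be read against that shift. There 15 repair genes were higher by 1.5-fold, 8 of them by 2-fold, and 3 were lower by 1.5-fold. FANCB changed sign, to 0.16, but stayed below the median of all genes and that of X. Of all genes, 52.4% were higher by 1.5-fold, 42.0% by 2-fold and 6.92% lower by 1.5-fold under that setting, so the 15 and 8 of 52 are below the background shares. The medians were 0.57 for the Fanconi pair and partners, 0.38 for homologous recombination, -0.31 for end joining, -0.45 for mismatch repair, 0.019 for nucleotide excision repair and 0.43 for the genes without a repair role. Genes on X had a median of 0.42, those on chromosome 13 also 0.42 and those on the other autosomes 0.69. Without the spots with a marked local background, normexp gave a median of -0.0071 over all genes and -0.37 over X. The X median was -0.37 with no background correction and -0.36 with median pixels. Over the other processing settings, with no chromosome left out or subtracted, FANCB ran from -0.87 to -0.72, DDB2 from -0.51 to -0.42 and CHEK2 from -0.43 to -0.30.

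With no filter on dim probes, or with 1 array well above background, 2 repair genes were 1.5-fold lower, since ERCC4 enters beside FANCB. With the brightest probe of each gene the translesion median was 0.038. Chosen after the data were seen, leaving out X and chromosome 13 gave 0 repair genes 1.5-fold lower and a median of 0.0010 for the Fanconi pair and partners, and subtracting the median of each chromosome gave 0 and -0.017. Apart from settings that add or remove genes or probes, the cause was not tested. Genes near the lowest signals well above background, such as ERCC4, ATM and the dim POLH probe, are limited most by signal over background.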
